A study of Rattus norvegicus with 30 samples.

Results

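Lum, Sfrp2, Cxcl14 and Itgbl1 encode secreted proteins of connective tissue stroma. They were found by name among the 9999 gene names of the files, 1 row each, and all 4 passed the filter on low values (at least 1 CPM in at least 3 samples), as did 4363 names in all. They had been chosen with their values in these samples known, so their levels, fold changes and calls are a description and carry no p. Rat bone marrow mesenchymal stem cells (BMSCs), taken at passage 2 from 3 female Sprague Dawley rats aged 3 weeks, were sequenced undifferentiated at 0 h and after 3, 12 and 72 h in osteogenic (OS), adipogenic (AD) or chondrogenic (CH) medium. Each of the 10 groups had 3 samples, each a pool of 3 cultures. All 3 lineages share the same 0 h samples, no uninduced cells of the later time points were analysed here, and nothing in the labels says whether the samples of a group came from separate animals, so the errors measure the spread between these samples, which may be technical.

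Levels are in CPM, reads of a gene scaled to a common total per sample, as deposited, with no gene length in them, so levels of different genes are not compared. The samples held 3899609 to 9046719 reads (median 6579543), of which the genes in the files took 38.9 to 71.4%. A signal of 3 reads, 0.332 to 0.769 CPM depending on the sample, was taken as the floor, which covers counting error only. Of 13 stromal cell markers fixed for the check, 7 were in the files. Thy1, Cd44 and Itgb1, surface proteins of stromal cells, had at least 387, 258 and 3311 CPM in every sample, whereas Vim, Eng, Pdgfra and Pdgfrb never exceeded 1.58, 0.663, 1.82 and 1.77 CPM. Actb, the cytoskeletal actin that nearly all cells use and which was looked at after its values were seen, had at most 5.39 CPM. A value near 0 in these files can therefore not be read as a gene that the cells do not express. The haematopoietic markers (4 of 12 in the files) summed to at most 4.08 CPM in any sample, the endothelial ones (3 of 8) to at most 7.08 CPM, and the 1 erythroid gene of 6 had at most 3 reads. The chondrocyte list (8 of 9) summed to 46.6 to 50.8 CPM at 0 h and 1172 to 1516 CPM at CH 72 h, nearly all of it Sox9, the transcription factor of chondrocytes (1152 to 1489 CPM at CH 72 h), while Col2a1, Acan and Matn1 had at most 3 reads in every sample. The osteoblast list (7 of 8) summed to 3.47 to 5.77 CPM at OS 72 h, and to 202 to 320 CPM at CH 72 h, where 201 to 318 CPM were the 1 gene Ibsp, bone sialoprotein. Sp7 and Alpl had at most 3 reads in every sample, and Bglap and Dmp1 had 0 reads at CH 72 h.

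Lum is lumican, a small leucine-rich proteoglycan that binds collagen and regulates the assembly of its fibrils. Sfrp2 is a secreted frizzled-related protein, which binds Wnt ligands outside the cell and so modulates their signalling through frizzled receptors. Cxcl14 is a chemokine of the CXC family made by stromal and epithelial cells, and Itgbl1 is a secreted protein with EGF-like repeats related to those of integrin beta subunits. Stromal progenitors of bone marrow share such genes with fibroblasts, and Wnt signalling is known to favour the bone-forming over the fat-forming fate.

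Because Lum, Sfrp2 and Cxcl14 were high together in the same samples at 72 h of adipogenesis, the 250 bases before the start of each gene are shown, from RefSeq on assembly GRCr8. The 4 windows lie on the plus strand at chr7:34245456-34245705 (Lum), chr2:171387286-171387535 (Sfrp2), chr17:8322900-8323149 (Cxcl14) and chr15:107186542-107186791 (Itgbl1). Capitals mark matches, on either strand, to CCAAT, the GC box GGGCGG, the glucocorticoid receptor half-site AGAACA, the AP-1 site TGANTCA, the TCF/LEF site CTTTGA, the RUNX site TGTGGT or TATAAA.
Lum: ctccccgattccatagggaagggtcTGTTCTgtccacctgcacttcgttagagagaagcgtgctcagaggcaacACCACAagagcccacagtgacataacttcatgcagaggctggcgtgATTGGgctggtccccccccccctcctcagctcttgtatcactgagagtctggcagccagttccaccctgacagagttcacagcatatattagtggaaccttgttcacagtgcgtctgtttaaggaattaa
Sfrp2: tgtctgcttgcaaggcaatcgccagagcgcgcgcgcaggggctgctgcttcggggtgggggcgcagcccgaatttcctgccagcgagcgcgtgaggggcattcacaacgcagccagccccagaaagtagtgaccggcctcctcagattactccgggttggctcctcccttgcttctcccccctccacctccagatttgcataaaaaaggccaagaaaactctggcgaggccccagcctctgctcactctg
Cxcl14: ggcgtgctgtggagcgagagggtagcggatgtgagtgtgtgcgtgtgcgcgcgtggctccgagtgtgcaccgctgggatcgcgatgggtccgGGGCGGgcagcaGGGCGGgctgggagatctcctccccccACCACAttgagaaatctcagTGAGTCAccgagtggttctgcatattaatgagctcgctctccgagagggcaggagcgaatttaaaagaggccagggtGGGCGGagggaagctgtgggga
Itgbl1: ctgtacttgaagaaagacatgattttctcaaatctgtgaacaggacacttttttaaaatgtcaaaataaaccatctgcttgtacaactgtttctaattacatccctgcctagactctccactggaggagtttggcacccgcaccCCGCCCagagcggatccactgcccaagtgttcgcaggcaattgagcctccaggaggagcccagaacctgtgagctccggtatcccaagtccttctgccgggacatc
The Lum window held a half-site at position -225 (the leftmost base of the match, counted from the start of the gene), a RUNX site at -176 and a CCAAT at -130, each on the minus strand. The Cxcl14 window held GC boxes at -158, -146 and -22, a RUNX site at -119 and an AP-1 site at -99. The Itgbl1 window held a GC box at -106, and the Sfrp2 window held none of these letters. None of the 4 had TATAAA or CTTTGA, which occurred in 12.9 and 13.9% of the 33469 rat windows of this length. CCAAT occurred in 34.0% of all windows, the GC box in 30.5%, the half-site in 17.5%, the RUNX site in 14.5% and the AP-1 site in 6.34%. The E-box CANNTG, in 65.5% of windows, matched once in Lum and at 4 places in Itgbl1. The SMAD element CAGAC, in 42.9%, matched at 3 places in Lum, the first of which overlaps the half-site by 2 bases, and once in Sfrp2. No searched motif was shared by the windows of Lum, Sfrp2 and Cxcl14. GC content was 52.8% for Lum, 62.4% for Sfrp2, 63.2% for Cxcl14 and 49.6% for Itgbl1, against a median of 51.2% over all windows.

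Lum fell early in every lineage and was far higher than at 0 h in only 2 of the 3 samples of 72 h of adipogenesis. At 0 h it had 55.7, 47.9 and 47.3 CPM, a mean of 50.3 ± 4.69 (SD, n = 3). In osteogenesis it had 4.07, 6.79 and 5.53 CPM at 3 h, 4.07, 1.94 and 2.59 CPM at 12 h, and 12.8, 16.1 and 18.8 CPM at 72 h. All 9 samples lay below the 0 h samples, lowest at 12 h and partly back at 72 h. In chondrogenesis Lum had 3.00, 6.75 and 4.55 CPM at 3 h, 4.33, 2.49 and 2.06 CPM at 12 h, and 8.21, 9.29 and 8.67 CPM at 72 h. These too were all below 0 h. In adipogenesis it had 7.30, 7.24 and 5.95 CPM at 3 h, 20.04, 45.1 and 44.4 CPM at 12 h, and 1355, 1513 and 27.1 CPM at 72 h. The samples of 12 h were above those of 3 h and below those of 0 h. At 72 h replicates 1 and 2 were 26.9 and 30.1 times the 0 h mean, while replicate 3 was 1.86-fold below it. In the order of the 10 groups by mean log2 level, OS 12 h, CH 12 h, CH 3 h, OS 3 h and AD 3 h followed each other with overlapping samples. CH 72 h, OS 72 h, AD 12 h and 0 h each stood clear of the group below, and AD 72 h overlapped 0 h through replicate 3.

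Sfrp2 fell in all lineages within 3 h, stayed low in osteogenesis and was again within the range of 0 h, or just above it, at 72 h of chondrogenesis. At 0 h it had 116, 120 and 113 CPM, a mean of 116 ± 3.42 (SD, n = 3). In osteogenesis it had 5.01, 8.53 and 8.58 CPM at 3 h, 2.41, 2.69 and 3.50 CPM at 12 h, and 9.70, 10.8 and 8.74 CPM at 72 h. The 12 h group was the lowest of all 10, with no overlap with the next. In chondrogenesis it had 10.8, 11.2 and 11.9 CPM at 3 h, 6.79, 9.97 and 7.76 CPM at 12 h, and 133, 122 and 117 CPM at 72 h, where the samples overlapped those of 0 h. In adipogenesis it had 6.74, 9.28 and 7.73 CPM at 3 h, 29.7, 5.16 and 6.29 CPM at 12 h, and 1702, 1696 and 36.7 CPM at 72 h. Replicate 1 stood apart at 12 h and replicate 3 at 72 h. The first 2 samples of 72 h were 14.7 and 14.6 times the 0 h mean, and replicate 3 was 3.16-fold below it. Between OS 12 h at the bottom and 0 h, the groups OS 3 h, AD 3 h, CH 12 h, OS 72 h, AD 12 h and CH 3 h each overlapped their neighbour.

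Cxcl14 was at the floor nearly everywhere, and its signal came from 2 samples. At 0 h it had 0 reads in all 3 samples, which allows up to 0.455 CPM in the shallowest of them. In replicates 1, 2 and 3 of 72 h of adipogenesis it had 426, 440 and 3 reads, or 75.9, 78.0 and 0.475 CPM. Against 3 reads in the shallowest 0 h sample, replicates 1 and 2 were at least 167- and 172-fold higher, and replicate 3 gives no fold. At 72 h of osteogenesis it had 6, 8 and 4 reads (0.895, 1.25 and 0.603 CPM), above all 0 h samples and at least 1.97-, 2.74- and 1.32-fold above that floor. In each sample of the other groups it had 0 to 3 reads, so differences among them were not detectable at this depth. The 3 samples through which Cxcl14 passed the filter were replicates 1 and 2 of AD 72 h and replicate 2 of OS 72 h.

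Itgbl1 followed another course, with the highest levels at 72 h of osteogenesis and chondrogenesis. At 0 h it had 160, 170 and 167 CPM, a mean of 166 ± 5.14 (SD, n = 3). In osteogenesis it had 74.0, 83.7 and 55.2 CPM at 3 h, 36.0, 41.6 and 45.2 CPM at 12 h, and 685, 753 and 791 CPM at 72 h. It thus went from the lowest of all groups at 12 h to 4.48 times its 0 h mean at 72 h. In chondrogenesis it had 82.0, 80.9 and 71.9 CPM at 3 h, 187, 149 and 187 CPM at 12 h, and 767, 743 and 708 CPM at 72 h. The 12 h samples overlapped those of 0 h, and the 72 h mean was 4.46 times that of 0 h. In adipogenesis it had 71.96, 79.0 and 86.5 CPM at 3 h, 76.5, 49.2 and 59.0 CPM at 12 h, and 163, 160 and 7.92 CPM at 72 h. Replicates 1 and 2 of 72 h were within 1.04-fold of the 0 h mean, and replicate 3 was 20.9-fold below it. The samples of OS 72 h and CH 72 h overlapped each other and were above all others.

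**Figure D1:**
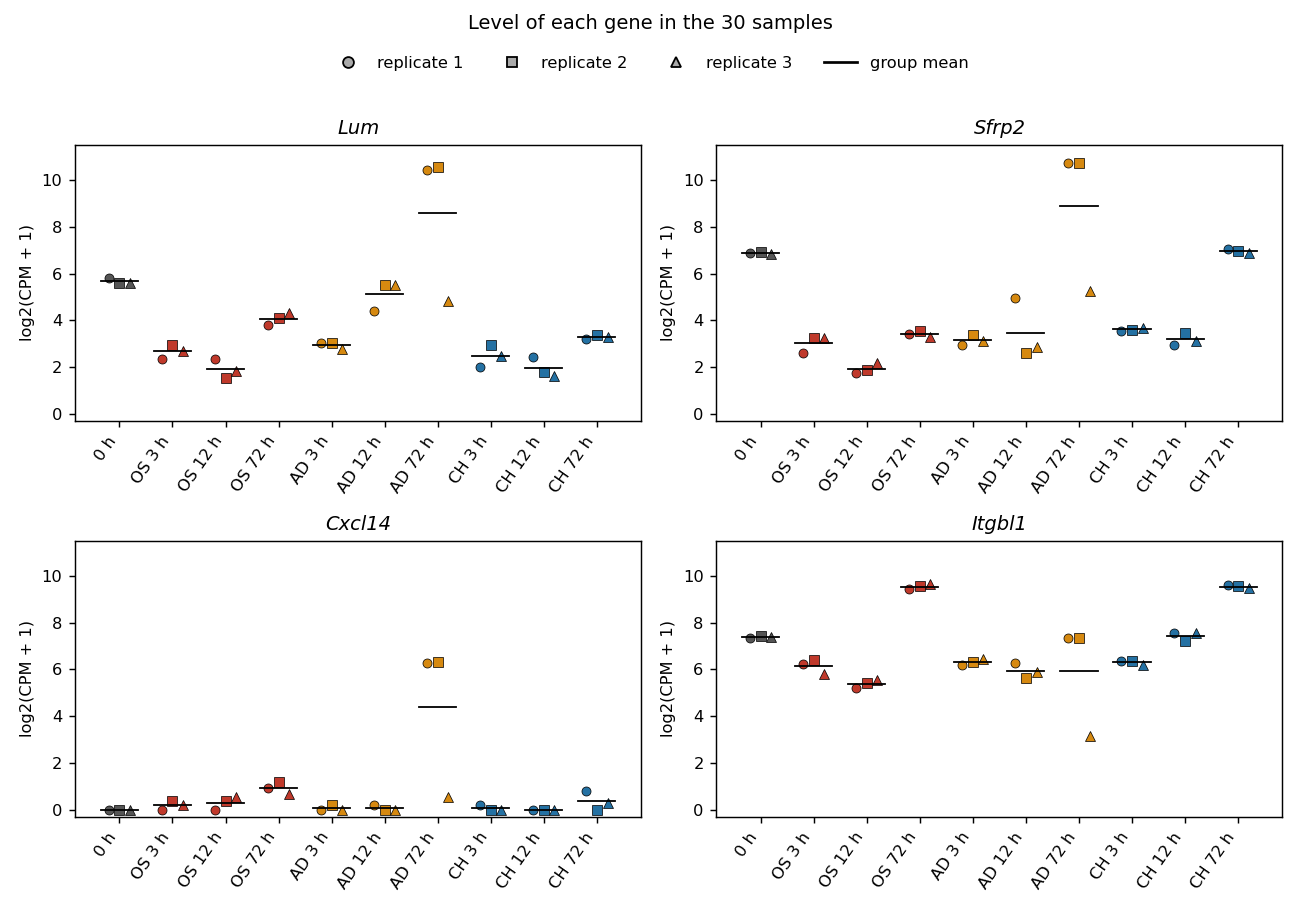
Level of each of the 4 genes as log2(CPM + 1), vertical axis, in the 30 samples by group, horizontal axis. Points are samples, with the replicate number as the shape and the lineage as the colour, and bars are group means. At AD 72 h the triangle of replicate 3 lies far under the other 2 points in every panel, and Itgbl1 alone is highest at OS 72 h and CH 72 h.

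Replicate 3 of 72 h of adipogenesis stood apart from replicates 1 and 2 in a limited set of genes, the 4 among them. Relative to the mean of replicates 1 and 2 it was 52.9-fold lower for Lum, 46.2-fold for Sfrp2, 162-fold for Cxcl14 and 20.4-fold for Itgbl1. Among the 4363 tested genes ordered by this difference, Cxcl14, Lum and Sfrp2 were the first 3 and Itgbl1 was number 8. The 4 genes had been chosen with this gap known, so their ranks are a description and no result. Over all tested genes 74 differed by more than 2 on the log2 scale, 71 of them lower in replicate 3. The next samples in that count were AD 12 h replicate 1 with 24 genes and OS 3 h replicate 3 with 18. The other genes among the 10 most below were Igfbp5, a binding protein of insulin-like growth factors (14952, 14956 and 380 CPM), Cxcl6, a neutrophil-attracting chemokine (275, 326 and 8.08 CPM), Hpgd, which breaks down prostaglandins, Car4, a carbonic anhydrase, C5ar2, a complement receptor, and Lgr5, an R-spondin receptor. The genes most above were Mpzl2, an adhesion protein (3.92, 3.19 and 36.6 CPM), and Maob, a monoamine oxidase (32.0, 30.5 and 171 CPM). Across all tested genes replicate 3 was still closest to its own group, with a correlation of 0.974 with the mean of the other 2 samples and at most 0.954 with any other group mean.

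Some markers of cell types differed in the same sample. The summed level of the adipocyte list, with 7 of 9 markers in the files, was 1196, 1420 and 3228 CPM in replicates 1, 2 and 3 of AD 72 h, against 664 to 778 CPM at 0 h. At OS 72 h the same list summed to 1045 to 1150 CPM, with a mean of 1107 CPM for Lpl, lipoprotein lipase. Pparg, another gene of the list, had a mean of 2.18 CPM at OS 72 h and 0.376 CPM at AD 72 h. In the samples of AD 72 h most of the sum was Lpl (1160, 1387 and 3216 CPM), while Cfd, the adipocyte product adipsin, went the other way (32.9, 31.0 and 7.29 CPM). Plin1, the coat protein of lipid droplets, had 2.14, 1.42 and 3.48 CPM, and Cidec had at most 3 reads in every sample. The fibroblast list, with 7 of 11 in the files, summed to 1804, 1691 and 607 CPM, against 4466 to 5260 CPM at 0 h, and nearly all of it was S100a4, a calcium-binding protein (1772, 1638 and 598 CPM). The stromal list summed to 4779, 4652 and 4112 CPM, against 16086 to 16893 CPM at 0 h. Within it Itgb1 was lower in replicate 3 (4133, 3911 and 3311 CPM), whereas Thy1 (387, 431 and 462 CPM) and Cd44 (258, 309 and 337 CPM) were not. The smooth muscle and pericyte list, with 5 of 7 in the files, summed to 8.37, 6.21 and 9.98 CPM, against 99.0 to 105 CPM at 0 h. The fibroblast, stromal and smooth muscle sums were thus below 0 h in all 3 samples of AD 72 h, in 2 of which Lum, Sfrp2 and Cxcl14 were far above it. This was not particular to AD 72 h. At CH 72 h these sums were 667 to 792, 9107 to 9585 and 80.0 to 85.4 CPM, with the adipocyte list at 14.1 to 15.3 CPM. At OS 72 h the smooth muscle sum was 5.30 to 10.9 CPM. The depth of AD 72 h replicate 3 was 6313113 reads, above the 5616285 and 5638906 of replicates 1 and 2. Of it 38.9% fell on the genes in the files, against 47.9 and 49.0%. The part of these differences in the levels of the 4 genes was not tested. In bulk samples, fewer cells of a type and less RNA per cell cannot be told apart.

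**Figure D2:**
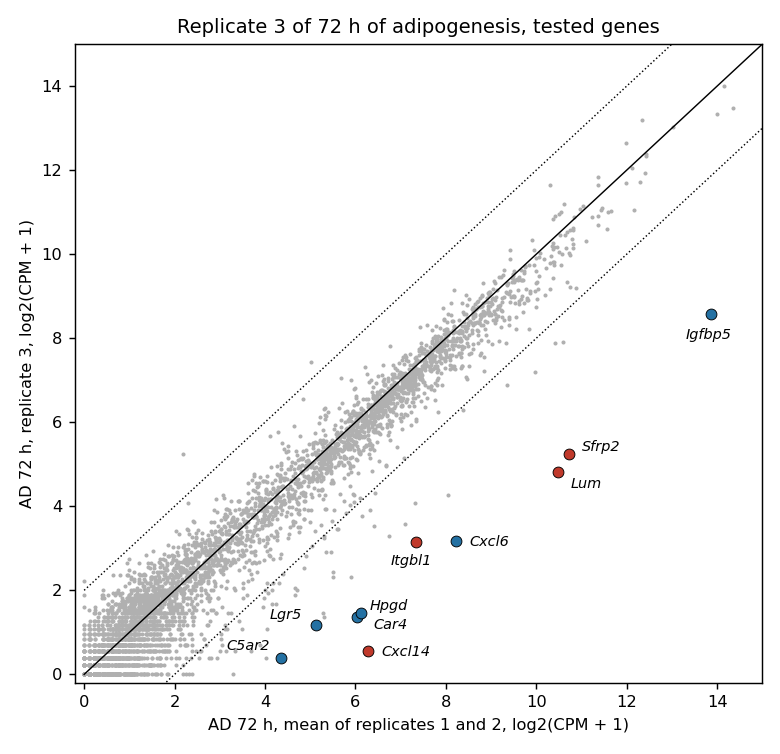
Level in replicate 3 of 72 h of adipogenesis, vertical axis, against the mean of replicates 1 and 2, horizontal axis, both as log2(CPM + 1), for the 4363 tested genes in grey. The solid line marks equal levels and the dotted lines a difference of 2. Red points are the 4 genes and blue points the other 6 of the 10 genes most below the line. Lum and Sfrp2 lie together with Igfbp5 at the high end of these.

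Changes against 0 h were fitted with limma on log2(CPM + 1), on which a fold change of a low gene is understated. A gene was called at an absolute log2 fold change of at least 1 with a Benjamini-Hochberg adjusted p under 0.05 over all tested genes. The 3 samples of AD 72 h share in the estimate of the spread, so replicate 3 set the SE of the 4 genes in every comparison. It was 0.75 for Lum and Sfrp2, 0.74 for Cxcl14 and 0.54 for Itgbl1 with all samples, and 0.27, 0.32, 0.20 and 0.14 without that replicate where AD 72 h was not compared. Both fits are given below, and since the genes were chosen by these values nothing is read from how many were called.

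In osteogenesis the log2 fold change of Lum was -3.01 at 3 h, -3.76 at 12 h and -1.61 at 72 h, which are means 9.20-, 17.6- and 3.16-fold below 0 h. That of Sfrp2 was -3.84, -4.93 and -3.45, or 15.8-, 40.5- and 11.9-fold lower. Sfrp2 at 12 h was the deepest fall of all 4363 genes in that comparison. Itgbl1 changed by -1.23, -1.9985 (4.05-fold lower) and 2.15. At 3, 12 and 72 h, 2, 3 and 2 of the 4 genes were called, beside 18.4, 21.8 and 12.5% of all tested genes. Without AD 72 h replicate 3, 3 were called at each time, with Itgbl1 added at 3 h and Lum at 72 h. The samples did not overlap those of 0 h for 3, 3 and 4 of them, against 47.4, 56.6 and 45.4% of all genes.

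In chondrogenesis Lum changed by -3.20, -3.73 and -2.40 at 3, 12 and 72 h, or 10.6-, 16.99- and 5.77-fold lower. Sfrp2 changed by -3.25 and -3.69 at 3 and 12 h, or 10.3- and 14.2-fold lower, and by 0.09 at 72 h, less than its SE. Itgbl1 changed by -1.08, 0.06 and 2.15. The sign of the 2 small values, Sfrp2 at 72 h and Itgbl1 at 12 h, turned under other scalings of the samples. Of the 4 genes, 2 were called at each time, beside 18, 14.4 and 18% of all genes, and 3, 2 and 2 without AD 72 h replicate 3, with Itgbl1 added at 3 h. Samples did not overlap for 3, 2 and 2 genes, against 54.9, 48.9 and 51.1% of all genes.

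In adipogenesis Lum changed by -2.71 at 3 h (7.37-fold lower) and by -0.54 at 12 h. Sfrp2 changed by -3.72 and -3.40, or 14.7- and 8.47-fold lower, and Itgbl1 by -1.06 and -1.44. At 3 and 12 h, 2 of the 4 genes were called, beside 18.8 and 13.7% of all genes, and 3 and 2 without AD 72 h replicate 3. The call of Itgbl1 at 12 h was lost without any 1 of the 0 h samples, without AD 12 h replicate 2 or 3 and with no filter. Its log2 fold change stayed between -1.60 and -1.29. Samples did not overlap for 3 genes at both times, against 56.1 and 45% of all genes. At 72 h the fit with all samples gave 2.92 for Lum, 2.03 for Sfrp2, 4.38 for Cxcl14 and -1.43 for Itgbl1. Without replicate 3 it gave 4.81 ± 0.30, 3.86 ± 0.36, 6.28 ± 0.23 and -0.04 ± 0.15 (± SE). With replicate 1 or 2 left out in place of replicate 3, the lowest values were 1.93 for Lum, 1.11 for Sfrp2, 3.41 for Cxcl14 and -2.14 for Itgbl1. All 4 were called with all samples, beside 15.3% of all genes, and 3 without replicate 3, where Itgbl1 was not. The call of Sfrp2 was lost without replicate 1 or 2 of AD 72 h or any 1 of the 0 h samples, and that of Itgbl1 without any 1 of the 0 h samples, which left 2 or 3 genes called. A fit on the 6 samples compared called 0, with Sfrp2 and Itgbl1 at 2.03 and -1.43 as before. With all replicates kept, the samples of Lum, Sfrp2 and Itgbl1 overlapped those of 0 h, and those of Cxcl14 did not, with replicate 3 at 3 reads against 0. That is 1 of the 4 genes, against 44.4% of all genes. The values of Cxcl14 depend on the pseudocount, because 0 h was at 0 reads.

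Marker lists moved with the early changes too, and their part in the levels of the 4 genes was not tested. The smooth muscle and pericyte list, 99.0 to 105 CPM at 0 h, summed to 438 to 466 CPM at OS 3 h, 347 to 360 CPM at AD 3 h and 502 to 516 CPM at CH 3 h, nearly all of it the actin-binding proteins Cnn1 and Tagln, with Acta2 at most 3 reads in every sample. The adipocyte list, 664 to 778 CPM at 0 h, summed to 106 to 130 CPM at OS 12 h and 81.0 to 97.9 CPM at CH 12 h. At AD 12 h it summed to 254, 1095 and 1029 CPM in replicates 1, 2 and 3, of which replicate 1 also stood apart for Sfrp2. There the stromal list was at 9411 to 12496 CPM and the smooth muscle and pericyte list at 23.6 to 32.2 CPM. The stromal list was at 15476 to 23219 CPM in the groups of 3 h, against 16086 to 16893 CPM at 0 h, and the fibroblast list at 5811 to 6959 CPM against 4466 to 5260 CPM.

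**Figure D3:**
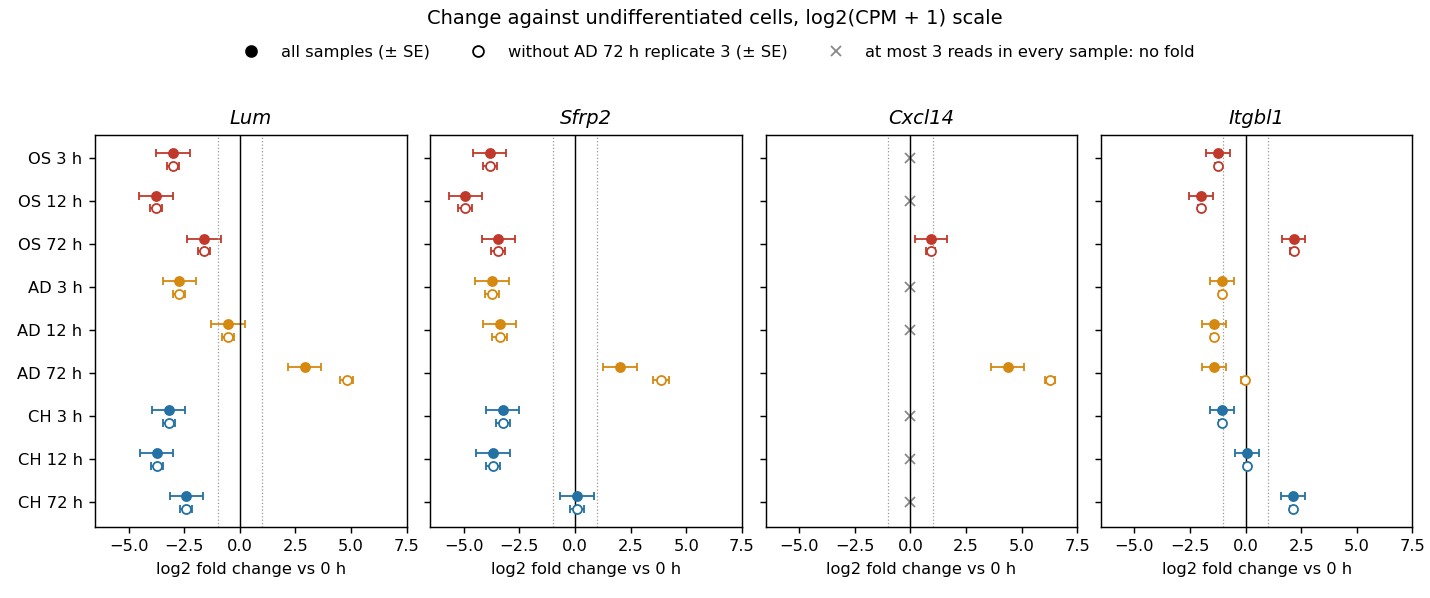
Log2 fold change against 0 h, horizontal axis, on the log2(CPM + 1) scale, of the 4 genes in the 9 groups, vertical axis. Filled points are the fit with all samples, open points that without AD 72 h replicate 3, bars are 1 SE, dotted lines mark a log2 fold change of 1 in either direction and crosses mark Cxcl14 at no more than 3 reads in all samples compared. At AD 72 h the 2 fits part, most for Cxcl14 and Lum, and for Itgbl1 the open point lies at 0.

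From 12 to 72 h Lum was called higher in OS and AD, Sfrp2 in AD and CH, Cxcl14 in AD and Itgbl1 in OS and CH. From 12 to 72 h of osteogenesis Lum changed by 2.15, Sfrp2 by 1.48 and Itgbl1 by 4.15, with an Itgbl1 mean 18.1 times higher. The call of Lum there was lost without OS 12 h replicate 2 or OS 72 h replicate 3 and with no filter, at log2 fold changes of 1.97 or more. From 12 to 72 h of chondrogenesis Lum changed by 1.34, Sfrp2 by 3.78 and Itgbl1 by 2.09, with an Sfrp2 mean 15.2 times higher. Sfrp2 in OS and Lum in CH were not called with all samples, which left 2 genes called in each, and both were without AD 72 h replicate 3, beside 23.2 and 13.2% of all genes. From 12 to 72 h of adipogenesis the changes were 3.45 for Lum, 5.42 for Sfrp2, 4.31 for Cxcl14 and 0.00 for Itgbl1. They were 5.34, 7.26, 6.22 and 1.40 without replicate 3, and 3 and 4 of the genes were called, beside 16% of all genes. Lum overlapped there, with 27.1 CPM in replicate 3 of 72 h against 20.04 to 45.1 CPM at 12 h, and a fit on the 6 samples compared called 0 of the 4. From 3 to 12 h, Lum in adipogenesis changed by 2.18 (5.35-fold higher) and was the 1 gene called, beside 12.9%. That call was lost without any 1 of the AD 3 h samples, without AD 12 h replicate 2 or 3 and with no filter, at log2 fold changes of 1.99 or more. Sfrp2 changed there by 0.33, and by -0.40 without AD 12 h replicate 1. In osteogenesis Sfrp2 changed by -1.09 and in chondrogenesis Itgbl1 by 1.14. Neither was called with all samples and each was without AD 72 h replicate 3, beside 7.82 and 7.68% of all genes.

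At 3 h none of the 4 genes was called between any 2 lineages, beside 7.66% of all genes for OS against AD, 7.31% for OS against CH and 9.35% for CH against AD. Their log2 differences at 3 h ran up to 0.58 in size, for Sfrp2 in OS against CH. At 12 h Lum separated adipogenesis from the others, with means 12.7-fold lower in OS and 12.3-fold lower in CH than in AD. Itgbl1 at 12 h was 4.26-fold lower in OS than in CH and 2.83-fold higher in CH than in AD. The genes called at 12 h were Lum for OS against AD (13.2% of all genes), Itgbl1 for OS against CH (16%), and both for CH against AD (13.6%). The call of Itgbl1 for CH against AD was lost without any 1 of the CH 12 h samples, without AD 12 h replicate 2 or 3 and with no filter, at log2 fold changes of 1.35 or more. Sfrp2 at 12 h was 1.53 lower on the log2 scale in OS than in AD and 1.24 lower in OS than in CH, neither called with all samples and both called without AD 72 h replicate 3. Without AD 12 h replicate 1, the sample with 29.7 CPM, the difference between OS and AD was -0.80.

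At 72 h Sfrp2 was called between OS and CH, and Lum and Itgbl1 between AD and both others without overlap of samples. Between OS and CH Itgbl1 had a difference of 0.00 ± 0.54 (SE) on the log2 scale, or ± 0.14 without AD 72 h replicate 3, and a ratio of means of 1.004. Sfrp2 was 12.7-fold lower in OS than in CH, the 1 gene called there, beside 19.6% of all genes. Lum was 1.82-fold higher in OS than in CH without overlap of samples and was not called. Against AD, all 4 genes were called both in OS (13.7% of all genes) and in CH (25.5%), with and without replicate 3. The call of Sfrp2 in CH against AD was lost without replicate 1 or 2 of AD 72 h, where the log2 difference was -1.02, and without any 1 of the CH 72 h samples. Fits on the 6 samples compared called 1 gene for OS and 2 for CH. The log2 difference of Lum from AD was -4.53 in OS and -5.31 in CH, and -6.42 and -7.20 without replicate 3. That of Sfrp2 was -5.48 and -1.94, and -7.31 and -3.77 without replicate 3. That of Cxcl14 was -3.45 and -4.01, and -5.36 and -5.91 without replicate 3. For Itgbl1, higher in OS and CH than in AD, the differences were 3.59 and 3.58 with all samples and 2.19 and 2.19 without replicate 3. The Cxcl14 samples of both lineages, and the Sfrp2 samples of CH, overlapped those of AD through replicate 3. Samples did not overlap for 2 of the 4 genes in OS against CH, 3 in OS against AD and 2 in CH against AD, beside 52.2, 45.1 and 52.6% of all genes.

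The genes of the same pathways are given by lists named for the families of the 4, which leave the 4 out. Beside the counts of called genes below stand the shares of all tested genes called against 0 h, which at 3, 12 and 72 h were 18.4, 21.8 and 12.5% in OS, 18.8, 13.7 and 15.3% in AD and 18, 14.4 and 18% in CH. In lists of 2 to 7 tested genes 1 called gene is near those shares or cannot be set against them, and is no result about the list. A gene that passed the filter through 1 group alone had to be high there, and its values are given without a p. Of 15 Wnt antagonists, all but Apcdd1 secreted, 9 were in the files and 4 were tested (Frzb, Dkk3, Notum and Apcdd1). Frzb, a secreted frizzled-related protein like Sfrp2, had a mean of 13.6 CPM at 0 h and 673, 623 and 118 CPM at AD 72 h, a log2 fold change of 4.66 ± 0.40 (limma, adjusted p = 7.44e-11). It fell at 3 and 12 h in every lineage, for example by 3.80 ± 0.40 at OS 12 h (adjusted p = 3.12e-09), and at 72 h of OS and CH it differed from 0 h by -0.01 and -0.63, neither called. Apcdd1, a membrane inhibitor of Wnt signalling, was at 0 reads at 0 h and had 14.7 ± 0.988 CPM at AD 72 h and 2.53 ± 0.690 CPM at OS 72 h. In the other groups its means were at most 0.599 CPM. It passed the filter through the groups where it was high, so no p is given for it. Dkk3, of the Dickkopf family, fell at 3 and 12 h of OS and at 3 h of AD, by 1.63, 1.35 and 1.29 on the log2 scale. Over OS 3, 12 and 72 h 0, 0 and 1 genes of the list rose and 2, 2 and 0 fell. Over AD 0, 0 and 2 rose and 2, 1 and 0 fell, and over CH 1, 1 and 0 fell. Called genes were 2 at AD 12 h without its replicate 1, 2 at CH 12 h without its replicate 1 and 1 at CH 72 h without its replicate 3. The list's median log2 fold change at AD 72 h was 2.36, against -0.05 over all tested genes, and 2 of its 4 genes were called without replicate 3 too. The membrane protein Apcdd1 is counted in, which passed the filter where it was high, so this median is no result about the list.

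Of 19 Wnt ligands 2 were tested, and Wnt4 alone was called, higher at AD 72 h (1.28 ± 0.29), where its mean was 2.70 CPM. No p is given, since its means in the other induced groups were at most 0.873 CPM. With 1 sample left out, 0 to 1 ligand was called at CH 3 h. Of 18 receptors 7 were tested, of which, mostly near the shares of all genes, at 3, 12 and 72 h 1, 0 and 0 rose in OS, 1, 0 and 1 in AD and 1, 1 and 3 in CH, and 1 fell at each time of OS and 1, 1 and 2 in CH. Fzd4, a frizzled receptor, fell in chondrogenesis by 1.94, 2.65 and 2.77 at 3, 12 and 72 h (SE 0.16, adjusted p = 6.47e-15 at 72 h). At AD 72 h it rose by 1.05, a call lost without replicate 3 or without replicate 2 of 0 h. With 1 sample left out, 0 to 2 receptors were called there. Lgr5 fell at all times of osteogenesis, with log2 fold changes of -2.47, -2.46 and -3.40 (SE 0.55, adjusted p = 1.5e-05 at 72 h), and at CH 72 h by 1.68 (adjusted p = 0.0165). Fzd9, low throughout, rose at 3 h in each lineage and at 12 and 72 h of chondrogenesis, with means of at most 3.28 CPM. Lgr6, another R-spondin receptor, had 2.38 ± 1.05 CPM at CH 72 h and passed the filter through that group alone.

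Of 15 target genes of Wnt/β-catenin signalling 5 were tested. Tnfrsf11b, which encodes osteoprotegerin, the decoy receptor that restrains osteoclasts, fell in 8 of the 9 groups, with log2 fold changes of -3.75 ± 0.19 at OS 12 h (adjusted p = 7.01e-16) and -3.63 at CH 72 h. Its log2 fold change was -1.10 at OS 3 h, a call lost without OS 3 h replicate 3, and -0.89 at AD 3 h, under the fold threshold. Axin2, a feedback inhibitor of the pathway, fell at 3, 12 and 72 h of adipogenesis, by 1.01, 1.29 and 1.20 (SE 0.35, adjusted p = 0.00694 at 72 h), and was not called in OS or CH. Its means in AD were 0.683, 0.344 and 0.488 CPM, within the range of the floor of 3 reads (0.332 to 0.769 CPM). Axin2 was the 1 gene of the list called at AD 3 h, where none was without replicate 1 or 2 of 0 h or replicate 1 or 2 of AD 3 h. At 3, 12 and 72 h 1, 2 and 2 of the list fell in OS, 1, 3 and 3 in AD and 2, 2 and 1 in CH, and 2 and 1 rose at 3 and 72 h of CH. Rnf43, a ubiquitin ligase that removes frizzled receptors, fell at 12 and 72 h of both OS and AD and at 3 and 12 h of CH. Its means of 0.514 CPM at AD 72 h and 0.353 CPM at OS 72 h were also within the range of the floor. At CH 12 h 1 gene of the list in place of 2 was called without replicate 3 of 0 h or replicate 1 of CH 12 h. At 3 h of chondrogenesis Nkd1, a feedback inhibitor of the pathway, rose by 1.15 (adjusted p = 1.41e-05), and Lef1, which passed the filter through that group, had a mean of 2.02 CPM against 0.296 CPM at 0 h. At AD 72 h the list's median was -1.20, against -0.05 over all tested genes, and 3 genes were called without replicate 3 too. Of these Axin2 and Rnf43 rest on few reads.

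**Figure D4:**
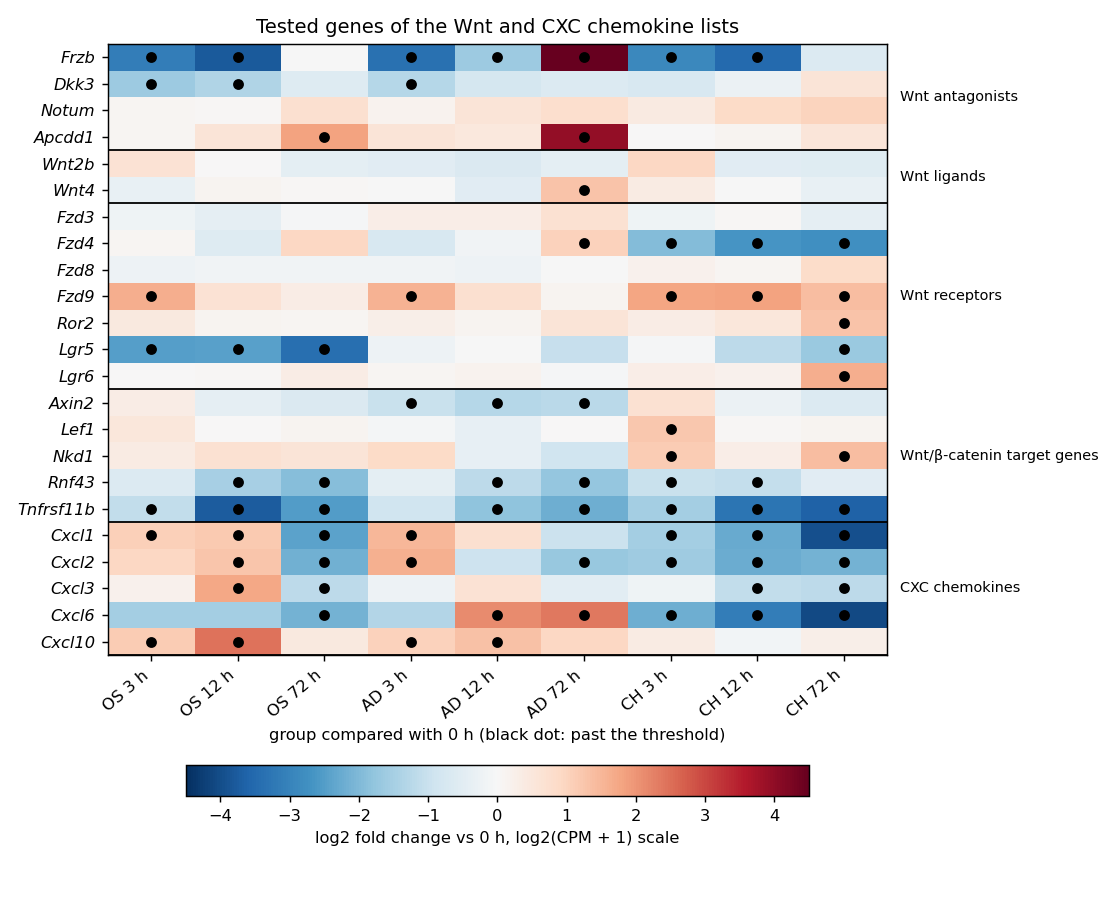
Log2 fold change against 0 h, as colour, of the tested genes of the Wnt lists and of the CXC chemokine list, in rows, in the 9 groups, in columns. Black dots mark genes past the threshold. Frzb is blue at 3 and 12 h of each lineage and deep red at AD 72 h, and the CXC chemokines are mostly red at OS 12 h and blue at OS 72 h and in chondrogenesis.

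Of 13 other CXC chemokines 9 were in the files and 5 were tested. At 3, 12 and 72 h of AD 3, 2 and 1 rose (1 at 12 h without its replicate 3) and 1 fell, the last at 72 h. At OS 3 h 2 rose (1 without its replicate 1) and at OS 12 h 4, among them Cxcl1 by 1.18 ± 0.13 (adjusted p = 5.97e-09) and the interferon-induced Cxcl10 by 2.46 ± 0.29 (adjusted p = 3.37e-08), and at OS 72 h 4 fell. In chondrogenesis 3, 4 and 4 fell at 3, 12 and 72 h, with Cxcl1, which attracts neutrophils, down by 3.94 at 72 h (adjusted p = 8.22e-21). At AD 72 h Cxcl6 was called higher (2.39 ± 0.67, adjusted p = 0.00572), with 275 and 326 CPM in replicates 1 and 2 but 8.08 CPM in replicate 3, below the 0 h mean of 17.2 CPM, and Cxcl2 fell (by 1.69, adjusted p = 3.92e-07), while Cxcl14 had the values given above. The list's median was 1.25 at OS 12 h, -2.11 at OS 72 h and -0.47 at AD 72 h, against 0.09, 0.08 and -0.05 over all tested genes. None of the 2 CXC receptors in the files passed the filter.

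Of 15 other small leucine-rich proteoglycans 6 were in the files and only Kera, keratocan, was tested. It had 0 reads at 0 h and 3.80 ± 2.73 CPM at AD 12 h, the group through which it passed the filter, and was not called in the other groups. Of 20 genes of collagen fibril assembly 6 were in the files and tested. Col5a1, a collagen chain that nucleates fibrils, rose at 3, 12 and 72 h of chondrogenesis by 1.85, 2.46 and 1.16 (SE 0.24, adjusted p = 1.37e-09 at 12 h). In CH 1, 3 and 3 of the 6 rose at 3, 12 and 72 h and none fell, and in OS 1 rose at 3 h and 1, 2 and 0 fell. The 2 falls at OS 12 h became 1 without replicate 1 or 3 of 0 h or replicate 1 or 2 of OS 12 h. The crosslinking enzyme Lox rose at CH 12 h by 1.47, and Loxl2, another of them, at CH 72 h by 1.20. In adipogenesis Col5a2 fell at 3 h, by 1.63 (adjusted p = 0.00039), and none of the 6 was called at 12 or 72 h with all samples. Without replicate 2 of 0 h 1 was called at both times, as was 1 at 12 h without its replicate 1 and 1 at 72 h without its replicate 3. Of 8 integrin beta subunits, whose repeats Itgbl1 resembles, Itgb1 and Itgb7 were tested. Itgb7 rose at OS 12 h and OS 72 h, by 2.47 and 1.49 (SE 0.29), and Itgb1 fell at AD 72 h by 1.03 ± 0.12, a call lost without replicate 3, without replicate 1 of 0 h, in edgeR and under quantile and median-ratio scaling. Of 17 alpha subunits 2 were tested, with Itgax called higher at OS 3 h and CH 3 h. Itga10, a collagen receptor of chondrocytes, had 0 reads at 0 h and 11.6 ± 1.60 CPM at CH 72 h, and it passed the filter through that group alone. The call of Itgax was lost at both times without replicate 1 of 0 h, at OS 3 h without its replicate 3 and at CH 3 h without its replicate 1 or 2. At AD 12 h and OS 12 h 0 to 1 alpha subunit was called with 1 sample left out.

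The genes whose profile over the 30 samples was most like that of the 4 are a description, since the points share libraries and depth. Pearson's r of log2(CPM + 1) was 0.79 between Lum and Sfrp2, 0.80 between Lum and Cxcl14 and 0.71 between Sfrp2 and Cxcl14, and 0.10 to 0.35 between Itgbl1 and each of them. Without the 3 samples of AD 72 h (n = 27) the first 3 values were 0.50, -0.01 and -0.01, and those of Itgbl1 were 0.22 with Lum, 0.57 with Sfrp2 and 0.55 with Cxcl14. In those 27 samples Cxcl14 had at most 8 reads, and more than 3 only at OS 72 h. Its correlations there thus rest on few reads and say little about likeness. Frzb was most like Lum (r = 0.89) and most like the mean of the 4 standardized profiles (r = 0.88, and 0.97 without AD 72 h replicate 3). For Sfrp2 the first 2 were Daw1 (r = 0.85), whose level was at most 6.77 CPM at AD 72 h, and Frzb (r = 0.84). For Cxcl14 they were Nags and Ntrk2 (both r = 0.93). Nags had 4.10, 3.90 and 0 CPM at AD 72 h and means of at most 0.918 CPM at 0 h, OS 72 h and CH 72 h. Ntrk2, the receptor of brain-derived neurotrophic factor, had 27.4, 28.7 and 4.75 CPM at AD 72 h. For Itgbl1 they were Fkbp9, a prolyl isomerase of the endoplasmic reticulum (r = 0.96), and Serpinf1, a secreted inhibitor of vessel growth (r = 0.93). Fkbp9 stayed first for Itgbl1 without AD 72 h (r = 0.95), whereas Frzb was then among the first 3 for neither Lum nor Sfrp2, where Tlr8 (r = 0.90) and Efcc1 (r = 0.93) were first. For the mean of the 4 it was then number 9, with r = 0.92.

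**Figure D5:**
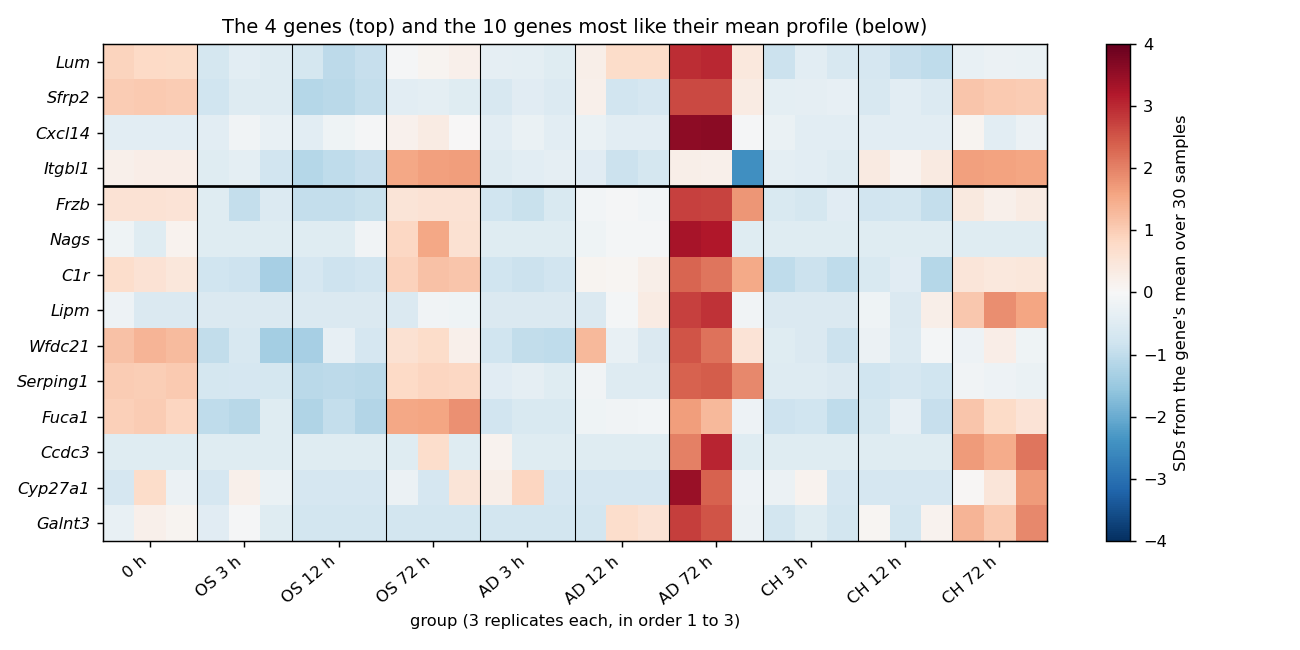
Standardized level, as colour, in SDs from each gene's mean of log2(CPM + 1) over the 30 samples, of the 4 genes (above the line) and of the 10 genes most like their mean profile (below), in rows, with the samples by group in columns. Replicates 1 and 2 of AD 72 h are dark red in Lum, Sfrp2, Cxcl14, Frzb and Nags, and replicate 3 is much lower in each of them and blue in Itgbl1.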

How the data were processed

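RNA of rat BMSCs was sequenced by the authors, and the submitters' processing notes name Trimmomatic, HISAT2 and StringTie. Versions and genome build are not given in the sources used here, and the study describes mRNA libraries whereas the labels mention Ribo-Zero. The authors deposited 1 value per gene as FPKM, but these deposited values are CPM: in every sample 100% were whole multiples of 1 step (within 0.01 reads), which gave reads and totals. Of 9999 names 729 were repeated and summed, none of them 1 of the 4 genes.

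The 4 genes, the lists and the rule for named genes were chosen with earlier results of these data known. That rule took the 4 genes, up to 4 called genes of each list and comparison with 0 h with the largest change, the genes most like the 4 profiles and the 10 furthest from the other replicates, on each side, in AD 72 h replicate 3. Values of log2(CPM + 1), the test planned for FPKM, entered 1 limma model (3.58.1, R 4.3.3, eBayes with trend) of the 10 groups, without covariates, for the 4363 names that reached 1 CPM in 3 or more samples. Groups were compared with 0 h, with the time before and between lineages, and the script was tested on simulated data.

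Other settings tried were 0.1 as the pseudocount, all genes unfiltered, 3 rescalings (quantile, median-ratio, equal sums over the listed genes), fits on only the 6 samples compared, a replicate block, leaving out each replicate, and the quasi-likelihood test of edgeR 4.0.16 on the recovered reads, which called 863 genes at AD 72 h against 666 with limma. Equal sums without the 4 genes and the 10 highest, and AD 72 h replicate 3 left out of all fits, were chosen after seeing the data. Promoter windows are from RefSeq, assembly GRCr8, in which all 4 symbols matched. Figures were drawn with matplotlib 3.10.9 in Python 3.11.15, and tables used pandas 2.3.3.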

Additional observations from a re-analysis of the deposited data

How the results depend on the processing

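Counts of the 4 genes called moved by over 1.5 times in these settings. With no filter, 1 was called for AD 12 h against 0 h, 2 for AD 72 h against 0 h, 1 for OS 12 to 72 h, 0 for AD 3 to 12 h and 1 for CH against AD at 12 h. In fits on the 6 samples compared, 0 were called for AD 72 h against 0 h and against AD 12 h, 1 for CH 3 to 12 h, 2 for OS against CH at 12 h, 1 for OS against AD at 72 h and 2 for CH against AD at 72 h. edgeR called 1 for CH 3 to 12 h and 2 for OS against AD at 12 h. Without AD 72 h replicate 3, 1 was called for OS 3 to 12 h, 1 for CH 3 to 12 h, 2 for OS against AD and 2 for OS against CH at 12 h. With each replicate left out in turn the counts ran from 1 to 2 for AD 12 h and 2 to 3 for AD 72 h against 0 h, 1 to 3 for OS 12 to 72 h, 0 to 1 for AD 3 to 12 h and 1 to 2 for CH against AD at 12 h. The lowest counts came without any 1 of the 0 h samples for AD 12 h and AD 72 h, without OS 12 h replicate 2 or OS 72 h replicate 3 for OS 12 to 72 h, without any AD 3 h sample for AD 3 to 12 h, without any CH 12 h sample for CH against AD, and without AD 12 h replicate 2 or 3 in all 3 comparisons that use that group here. In the calls lost there the log2 fold change of Itgbl1 at AD 12 h stayed between -1.60 and -1.29 and that of Lum from AD 3 to 12 h between 1.99 and 2.55. The genes of all pathway lists called against 0 h numbered 95 in all, and 92 to 114 under the alternatives.

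Signs turned only for differences that were small with all samples, though some were larger with 1 replicate left out. Itgbl1 at CH 12 h against 0 h was -0.30 with quantile normalization, -0.17 with median-ratio scaling, -0.17 with equal sums, -0.23 with equal sums without the 4 genes and the 10 highest, and -0.19 in edgeR. Sfrp2 at CH 72 h was -0.0794 with quantile normalization, and -0.14 and -0.18 with the 2 equal sums. Itgbl1 in OS against CH at 72 h was -0.062, -0.12 and -0.071 with quantile normalization, median-ratio scaling and edgeR. Lum in OS against CH at 12 h was 0.050 with quantile normalization, and Itgbl1 from AD 12 to 72 h was -0.030 with a pseudocount of 0.1. With 1 replicate left out, ranges that crossed 0 were -0.70 to 1.40 for Itgbl1 from AD 12 to 72 h, -0.40 to 0.76 for Sfrp2 from AD 3 to 12 h, -0.72 to 0.44 for Sfrp2 in CH against AD at 12 h, and -0.24 to 0.21 for Lum in OS against CH at 12 h. They were -0.042 to 0.062 for Itgbl1 in OS against CH at 72 h and, at 3 h, -0.23 to 0.11 for Sfrp2 in OS against AD, -0.29 to 0.010 for Itgbl1 and -0.042 to 0.44 for Lum in OS against CH, and -0.081 to 0.051 for Itgbl1 in CH against AD. The cause was not tested. Keeping rows of 1 name apart was not run, since each of the 4 genes has 1 row. Scalings moved the median log2 fold change of all genes by -0.33 to 0.26. Between the induced groups and 0 h no pairing by replicate number was seen, where same-numbered samples correlated at -0.085 to 0.0959 over 27 pairs. Pairing among the induced groups was not tested. The replicate block changed no call of the 4 genes, with 4 called at AD 72 h against 0 h.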
